A study of Mus musculus with 96 samples.

Results

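The 10 apolipoprotein genes Apoa1, Apoa2, Apoa4, Apoa5, Apob, Apoc3, Apod, Apoe, Apoh and Apom were followed through both tissues of a mouse obesity cross. They were chosen by name, and all 10 were represented on the array, by 12 of its 46116 probes. Apoa2 and Apoa4 had 2 probes each, numbered so that probe 1 is the brighter in liver. The array named 17658 genes in all.

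The animals were 48 mice of an M16i x MB2 F2 intercross, all 15 weeks old, and each gave 1 array of gonadal fat and 1 of liver (96 arrays in all). The labels sort them into 4 haplotype classes of 12 mice, with 6 females and 6 males in each. The parental segments that a class carries are not named in the labels, so classes are called by number. The study asked which transcripts follow the genotype on mouse chromosome 2. None of the 10 genes lies on that chromosome. In the RefSeq table of GRCm38.p6, Apoa1, Apoc3, Apoa4 and Apoa5 stand next to each other in that order on chromosome 9, and Apoe stands beside Apoc1 on chromosome 7. The others lie apart, Apoa2 on chromosome 1, Apoh on 11, Apob on 12, Apod on 16 and Apom on 17.

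Every array was 1 tissue of 1 mouse, hybridised as biotin-labelled cRNA made from total RNA. Between 6582 and 10002 probes were detected per fat array and between 5519 and 9060 per liver array, where detected means a detection p under 0.01. Arrays were scanned on 4 days per tissue, 12 a day, with 3 arrays of each class on each day. Those 3 came from 1 sex, and no scanning day held both tissues. The tissue labels were set against marker lists. All 11 adipocyte markers with a probe were higher in fat than in liver and all 17 testable hepatocyte markers were higher in liver, and none of either list went the other way. In whole tissue, fewer cells of a type and less RNA per cell cannot be told apart.

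Apolipoproteins are the protein part of the particles that carry fat and cholesterol in blood. Apolipoprotein B forms the scaffold of very low density lipoproteins that the liver secretes, and apolipoproteins A-I and A-II are the main proteins of high density lipoproteins. Liver makes most of them, while apolipoprotein E is also made by macrophages and adipocytes, and apolipoprotein D, a lipocalin rather than a classical lipoprotein protein, is made in many tissues other than liver. Transcription of the hepatic genes is known to depend on liver-enriched factors such as HNF4A, a nuclear receptor.

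Promoters (250 bases before to 50 after the annotated start, from RefSeq, GRCm38.p6) were found for 9 of the 10 genes, 13 in all since some genes have several starts. They are shown for the 3 genes whose windows held the HNF4A-type core (Apoa4, Apob, Apoh), all detected in liver alone. Apoa5, also detected in liver alone, held no such core and is not shown. The 2 genes detected on most fat arrays, Apoe and Apod, are shown as well. For Apoe this is the outermost of its 3 starts, the only one of its windows without any motif searched. Capitals mark the HNF4A-type core CAAAGNNCA and the letters TATAAA, each searched on both strands. The sequences read 5′ to 3′ along the gene.
Apoa4, chr9:46240594-46240893, plus strand: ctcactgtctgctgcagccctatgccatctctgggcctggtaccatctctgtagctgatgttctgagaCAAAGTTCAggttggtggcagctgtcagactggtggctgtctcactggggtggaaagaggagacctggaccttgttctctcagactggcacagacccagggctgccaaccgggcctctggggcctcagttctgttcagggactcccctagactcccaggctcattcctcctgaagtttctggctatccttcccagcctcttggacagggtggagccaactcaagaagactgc
Apob, chr12:7977427-7977726, plus strand: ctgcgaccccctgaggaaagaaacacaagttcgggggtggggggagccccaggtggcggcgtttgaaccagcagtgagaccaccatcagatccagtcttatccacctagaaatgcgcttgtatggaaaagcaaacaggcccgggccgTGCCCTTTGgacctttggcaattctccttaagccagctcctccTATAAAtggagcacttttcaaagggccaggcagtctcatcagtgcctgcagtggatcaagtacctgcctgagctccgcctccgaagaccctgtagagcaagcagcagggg
Apoh, chr11:108395047-108395346, plus strand: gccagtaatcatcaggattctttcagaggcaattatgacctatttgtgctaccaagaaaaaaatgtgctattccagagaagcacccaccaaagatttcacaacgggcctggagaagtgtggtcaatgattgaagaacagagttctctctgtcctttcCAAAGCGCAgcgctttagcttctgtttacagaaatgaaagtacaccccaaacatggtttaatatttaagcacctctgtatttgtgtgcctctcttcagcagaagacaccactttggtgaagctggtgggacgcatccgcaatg
Apoe, chr7:19699139-19699438, minus strand: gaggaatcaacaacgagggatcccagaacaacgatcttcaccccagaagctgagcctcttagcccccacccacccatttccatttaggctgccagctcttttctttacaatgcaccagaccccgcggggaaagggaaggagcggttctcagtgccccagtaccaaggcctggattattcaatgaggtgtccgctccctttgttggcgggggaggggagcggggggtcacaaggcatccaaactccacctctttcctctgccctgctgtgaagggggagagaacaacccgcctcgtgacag
Apod, chr16:31314759-31315058, minus strand: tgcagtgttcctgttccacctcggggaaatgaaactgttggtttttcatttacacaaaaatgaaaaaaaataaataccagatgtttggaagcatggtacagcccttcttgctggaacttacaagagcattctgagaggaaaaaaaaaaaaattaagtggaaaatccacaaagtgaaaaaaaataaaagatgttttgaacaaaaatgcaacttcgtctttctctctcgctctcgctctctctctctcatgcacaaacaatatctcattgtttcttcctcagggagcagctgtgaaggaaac

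The core lay at -182 to -174 in Apoa4, at -103 to -95 on the opposite strand in Apob and at -93 to -85 in Apoh, counted from the annotated start. It was in no other promoter window of the members. It occurs in 6.36% of all 32851 promoters of that length. Apob also held TATAAA at -60 to -55, and Apoa5 held it at -31 to -26 from 1 of its 2 starts. TATAAA also occurs in a window of Apoa2 and in 1 of Apoe, and in 13.6% of all promoters. The HNF1-type motif GTTAAT was found once, in another Apoe window, against 7.10% of all promoters. A match describes letters only.

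Fat and liver separated the family almost completely. On the scale normalized over all 96 arrays, 11 of the 12 probes were higher in liver and only Apod was higher in fat. By limma with Benjamini-Hochberg adjustment all 12 were called, against 86.7% of the 11718 probes tested. Among those, 38.8% were higher in liver and 47.9% higher in fat. In liver the 11 probes of the other 9 genes were detected on all 48 arrays, and Apod on none.

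Apoa1, the structural protein of high density lipoprotein, had a mean log2 signal of 6.11 ± 0.40 (SD, n = 48) in fat and 14.53 ± 0.20 in liver. The difference was -8.42 (SE 0.06, adjusted p = 6.26e-106, limma). Apoa2 probe 1 differed by -8.91 (SE 0.13) and probe 2 by -8.68 (SE 0.08), in the same direction. Apoc3, an inhibitor of triglyceride clearance, differed by -7.89 (SE 0.05). Apom, which carries sphingosine 1-phosphate on lipoproteins, differed by -6.44 (SE 0.03). For each of these probes the liver value exceeded the fat value in 48 of 48 mice. On fat arrays they were mostly not well above background. Apoa1 was detected on 3 of 48, Apoa2 on 10 by probe 1 and on 4 by probe 2, Apoc3 on 7 and Apom on 1. The fat means are therefore largely background, and in liver Apoa2 probe 1 was at the top of the array's range, so these differences understate the change and their sizes are not compared.

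Apob, Apoh, Apoa5 and both Apoa4 probes were not well above background on any fat array, so their differences are bounds. A bound sets the liver mean against the lowest signal that was still called detected on each fat array, or the probe's own value where that was higher. Apoh, a phospholipid-binding plasma glycoprotein, was at least 61.2-fold higher in liver (adjusted p = 1.10e-78, limma). Apob was at least 30.2-fold higher. Apoa4, an intestinal and hepatic apolipoprotein, was at least 19.6-fold higher by probe 1 and at least 4.29-fold by probe 2. Apoa5, which helps lipoprotein lipase to act on triglyceride, was at least 4.58-fold higher. The probes of Apoa4 therefore agree in direction but not in the size of the bound.

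Apoe, the receptor ligand that clears remnant particles, was the member with a substantial level in both tissues. Its log2 signal was 11.71 ± 0.37 (SD, n = 48) in fat and 13.39 ± 0.18 in liver. The level was 3.20-fold higher in liver (log2 difference -1.68, SE 0.06, adjusted p = 4.02e-48, limma), and higher in 48 of 48 mice. Apod was 7.20 ± 1.5 in fat and 6.09 ± 0.07 in liver, where it was not well above background on any array. It was at least 1.85-fold higher in fat (adjusted p = 1.99e-07, limma), with the liver value above the fat value in 1 of 48 mice.

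**Figure D1:**
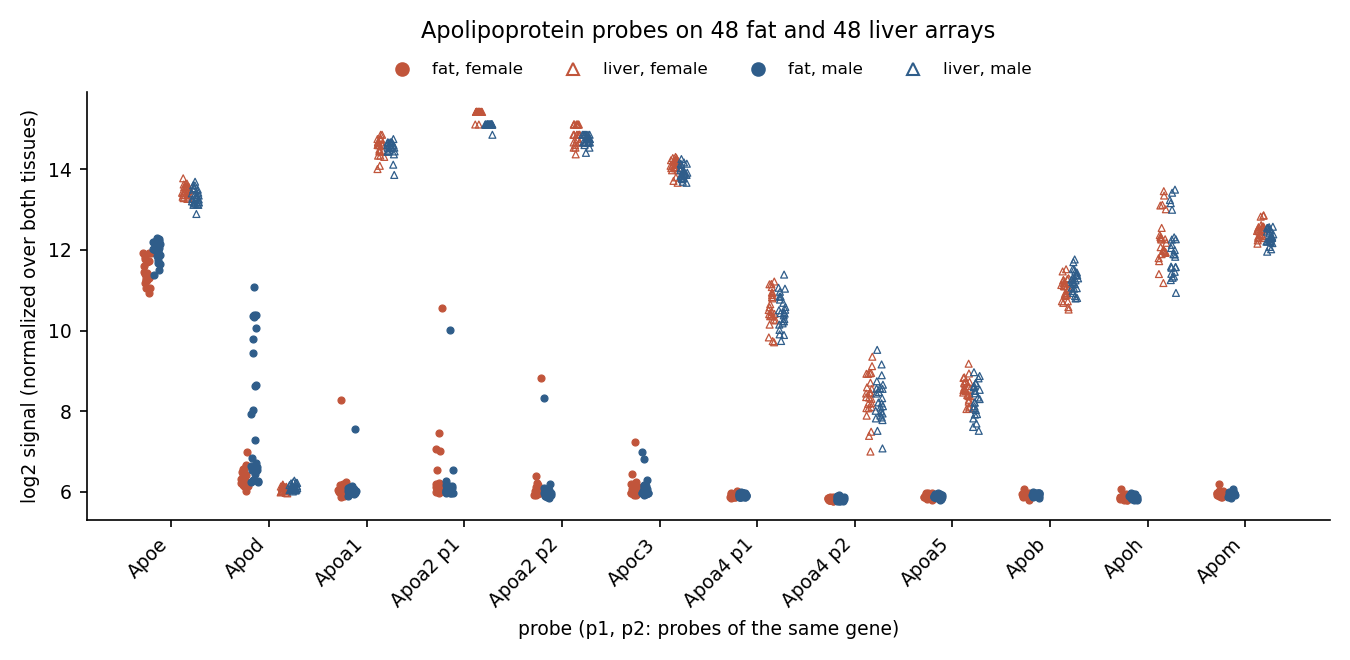
Log2 signal (vertical axis, normalized over both tissues) of the 12 apolipoprotein probes on 48 fat arrays (filled circles) and 48 liver arrays (open triangles), 1 symbol per array, red for females and blue for males. Apoe lies high in both tissues and Apod rises above the fat baseline mainly in males, while every other probe is high in liver and low in fat, apart from a few fat arrays with raised Apoa2, Apoa1 and Apoc3.

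Detection in fat divided the genes into 3 sets. Apoe was detected on 48 of 48 fat arrays and Apod on 40, so these were the members resolved in the dissected pad on most arrays. Apoa2, Apoc3, Apoa1 and Apom were detected on the 1 to 10 arrays given above. Apoa4, Apoa5, Apob and Apoh were detected on 0 of 48. An array signal below background does not show that a transcript is absent.

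The signal of Apoa2, Apoa1 and Apoc3 in fat came from few arrays. Apoa2 probe 1 ranged from 5.87 to 10.45 with a median of 6.04, on the scale normalized within fat. A class 3 female and a class 1 male stood apart from the others. The female's fat array read 10.45 for Apoa2, 8.48 for Apoa1 and 7.46 for Apoc3. The male's read 9.97, 7.79 and 7.17 for the same genes. The next highest Apoa2 values were 7.69, 7.25 and 7.21, all in females.

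Several hepatocyte markers were raised on the same 2 arrays. Transthyretin (Ttr), a plasma carrier made by liver, read 8.76 in the female and 8.06 in the male, against a median of 5.81 over all fat arrays. Haemopexin (Hpx) read 7.26 and 7.60, and was detected on 2 fat arrays. Alpha-2-HS-glycoprotein (Ahsg) read 7.11 and 6.61, and fibrinogen alpha (Fga) 7.40 and 7.08. The highest Fga value, 8.60, was on another array, a class 2 male whose Apoa2 read 5.99. Of 20 hepatocyte markers, 10 were detected on the female's array and 8 on the male's. Over all 48 fat arrays the signal of Apoa2 correlated with that of Ttr at r = 0.96, with Hpx at 0.91, with Ahsg at 0.75 and with Fga at 0.49, as a description over arrays that share their normalization. Over the other 46 arrays these were 0.77, 0.37, 0.26 and 0.08, and the rank correlations were 0.12, 0.18, 0.29 and 0.55. All these values are of signals from which class, sex and day were not removed. With them removed, over the same 46 arrays, r was 0.82, 0.34, 0.39 and 0.09 and rho was 0.56, 0.27, 0.41 and 0.31. Of the 20, 17 were detected on fewer than 12 fat arrays, and albumin, fibrinogen beta and gamma, Cps1, Otc, Tat, Tdo2, C8a, F2 and Serpina1e were on 0. The albumin probe was weak in liver as well. Serpina1b and Cyp2e1 were detected on all 48 fat arrays and Kng1 on 47. The summed signal of the 20 markers ran from 2490 to 19354 in fat and from 178530 to 230633 in liver. It was 5897 on the female's array and 7903 on the male's, and the highest fat sum was on a class 2 male with Apoa2 at 6.06. Over the 17 markers detected on fewer than 12 fat arrays, the same 2 arrays had the highest sums, 1510 and 1253. What part liver RNA had in the fat signal of these genes was not tested. Without the 2 mice, the fat minus liver difference was -9.08 for Apoa2 probe 1, -8.49 for Apoa1 and -7.93 for Apoc3, and all 12 probes were again called.

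**Figure D2:**
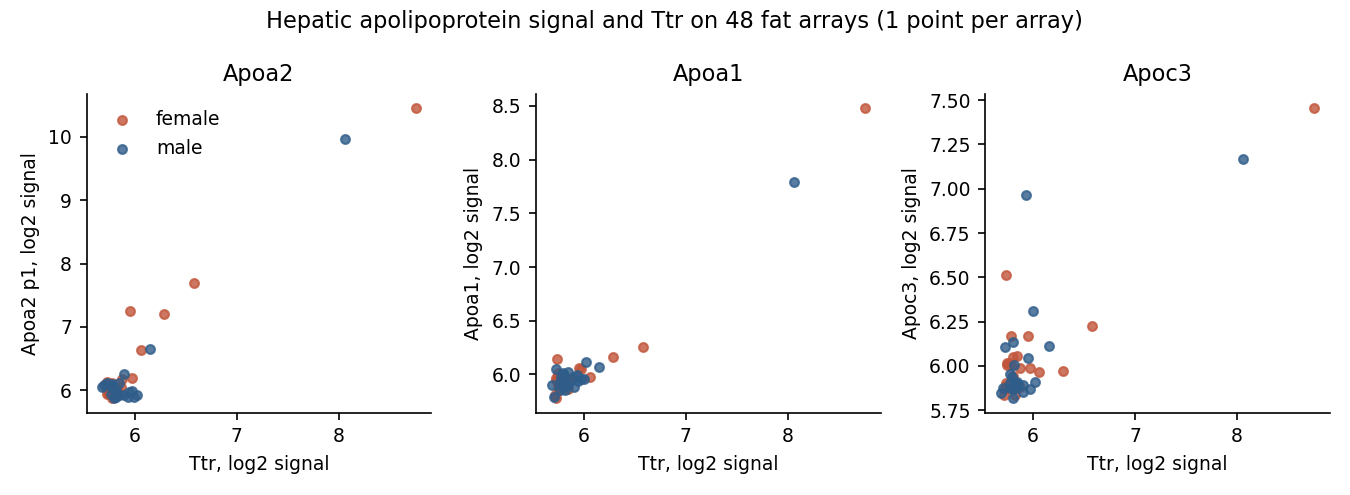
Log2 signal of Apoa2 probe 1, Apoa1 and Apoc3 (vertical axes) against that of the hepatocyte gene Ttr (horizontal axes) on 48 fat arrays, normalized within fat, 1 point per array, red for females and blue for males. For all 3 genes the highest values belong to the same 2 arrays that are highest in Ttr, and Apoc3 has a further array at 6.97 without raised Ttr.

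In fat, both testable members were higher in males. Apoe ranged from 10.77 over a median of 11.19 to 11.71 in 24 females and from 11.19 over 11.81 to 12.08 in 24 males. Of the males, 17 lay above the highest female. The fitted difference, female minus male, was -0.49 on the log2 scale (SE 0.07, adjusted p = 2.32e-06, limma), a 1.40-fold higher level in males. Males were higher on 4 of 4 scanning days. Either direction was called for 22.6% of the 10217 probes tested in fat, and 10.5% were higher in males.

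Apod spread far more widely, and almost entirely among males. The 24 females ran from 5.95 over a median of 6.31 to 7.16, near the detection limit, with 16 of them detected. The 24 males ran from 6.22 over 7.82 to 10.91, and all were detected. Of the males, 13 lay above the highest female, while the rest overlapped the female range. The mean was 6.36 ± 0.28 (SD, n = 24) in females and 8.12 ± 1.66 in males. The fitted difference was -1.64 (SE 0.35, adjusted p = 6.39e-04, limma), or 3.11-fold.

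The Apod difference varied with the scanning day. On day 3 the mean of 6 males was 9.08 ± 1.60 and that of 6 females 6.34 ± 0.33. On day 4 the means were 6.51 ± 0.42 in 3 males and 6.32 ± 0.19 in 9 females. Days 7 and 8 gave male means of 7.91 ± 1.69 (n = 6) and 8.15 ± 1.67 (n = 9) against female means of 6.47 ± 0.36 (n = 6) and 6.30 ± 0.34 (n = 3). Males were higher on each of the 4 days, by 0.19 at the least, and without the arrays of day 3 the call was lost (difference -0.93, adjusted p = 0.155, limma). The Apoe call held without each day in turn.

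**Figure D3:**
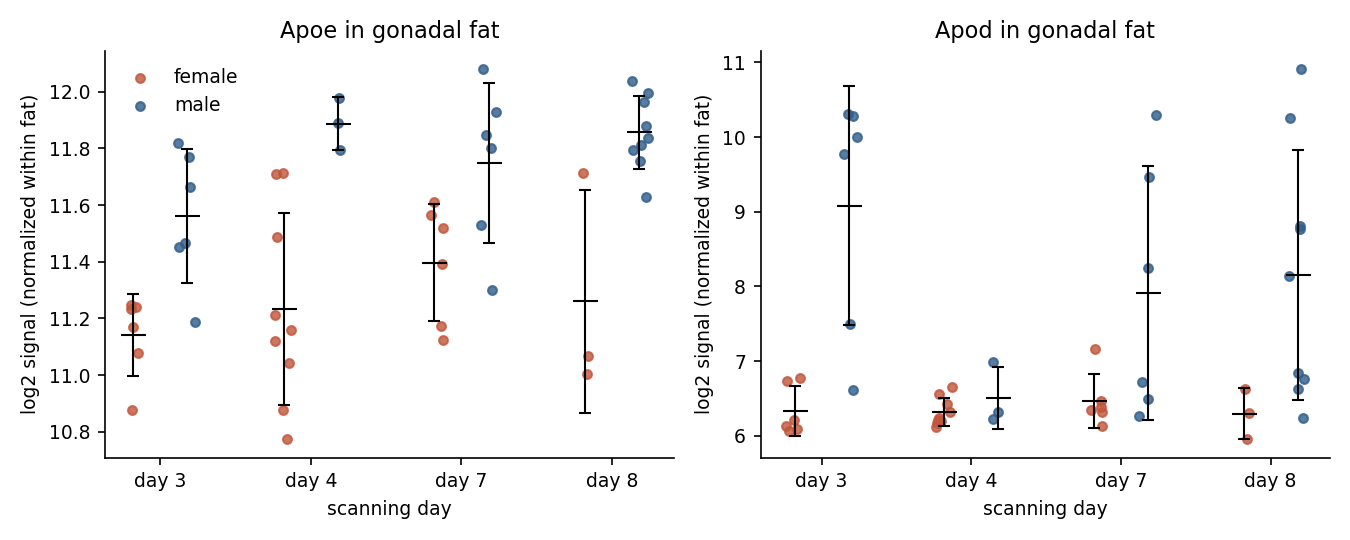
Log2 signal of Apoe and Apod in gonadal fat (vertical axes, normalized within fat) by scanning day, 1 point per array, red for females and blue for males, with the mean and SD of each sex and day in black. Apoe is higher in males on each day, and Apod males spread from 6.22 to 10.91 while females stay between 5.95 and 7.16.

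No correlation between Apod and Apoe was detected in fat. After class, sex and scanning day were removed their correlation over 48 mice was r = -0.08 (permutation p = 0.577) and rho = -0.06 (p = 0.691). The genes most like Apod in fat were Rsph1 (r = 0.94), which encodes a radial spoke protein of motile cilia, the co-chaperone gene Dnaja4 (r = 0.93) and the calmodulin-like gene Calml4 (r = 0.90), over 48 arrays. Within the 24 males these were 0.95, 0.94 and 0.91. Rsph1 averaged 6.11 in females and 7.33 in males and was detected on 19 of 48 fat arrays. All 3 genes were higher in males (adjusted p = 0.011, 0.0189 and 0.012, limma). The epithelial keratin genes Krt8 and Krt18 were also higher in male fat (differences -0.97 and -0.59) and correlated with Apod at r = 0.70 and 0.64. Within females these were 0.25 and 0.34, and within males 0.76 and 0.67. Over all testable mesothelial and epithelial markers the mean log2 level correlated with Apod at r = 0.24 (0.06 within females, 0.36 within males), and the mesothelial gene Wt1 was higher in females. The mean log2 level of the testable adipocyte markers went the other way from Apod, with r = -0.52 in all mice and -0.66 within males.

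Gonadal fat in a male lies against the epididymis, and markers of epididymis and testis were therefore examined beside Apod. Of 10 such markers with a probe, at least 1 was detected on 14 fat arrays, 12 of them male. Their summed signal ran from 410 to 8657 in males and from 405 to 476 in females. The defining epididymal genes Lcn5 and Lcn8 were detected on 3 arrays each, Adam7 on 2 and Rnase10 on 0, and the sperm gene Prm1 was detected on 10. Without these 14 arrays, a set chosen after the data were seen, the Apod difference was -1.84 and the Apoe difference -0.56, both still called by limma. The part that epididymis, testis or any other cell type had in the Apod spread was not tested. Markers of ovary, oviduct and uterus (9 with a probe) were tested in neither tissue, since none reached 12 detected arrays, and their sums were 391 to 427 in female and 390 to 422 in male fat.

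The 3 genes most like Apoe in fat, chosen by the same measure although Apoe has its higher level in liver, were Svep1 (r = 0.68), the cholesterol-binding mitochondrial protein gene Tspo (r = 0.65) and the phospholipid transfer protein gene Pltp (r = 0.64). Pltp was higher in male fat as well (difference -0.29, adjusted p = 0.0161, limma). Its correlation with Apoe was 0.84 within females and 0.27 within males. Apoe correlated with the mean log2 level of the testable macrophage markers at r = 0.32 and with that of the adipocyte markers at r = 0.42. Of 8 macrophage markers tested in fat, Mrc1 was higher in females (0.20) and Ctss in males (-0.39), with the other 6 not called. Trem2 was detected on 33 fat arrays, and Itgam, Fcer1g, Cd163 and Clec4f on 0. Of 11 fibroblast and endothelial markers tested in fat, 8 were higher in females and 0 in males, with the matrix genes Lum (1.33) and Col1a1 (1.10) among the 8. Of 5 mesothelial and epithelial markers, 1 was higher in females (Wt1, 0.91) and 2 in males (Krt8 and Krt18). Of 11 adipocyte markers, 1 was higher in females (Lpl) and 1 in males (Plin1, -0.48).

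Apoc1, the neighbour of Apoe on chromosome 7 and an inhibitor of lipoprotein uptake, had a sex difference of the same sign in fat, -0.99 (SE 0.14, adjusted p = 9.28e-07, limma). Its correlation with Apoe after removal of sex, class and day was r = 0.27 in fat and 0.59 in liver, over 48 arrays each. In the list of 16 other apolipoproteins and related plasma proteins, chosen like the members with earlier results known, 4 genes could be tested in fat. Apoc1 was lower in females and the other 3 were not called. The list's median difference was 0.13, against 0.01 over all probes tested.

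In liver, 6 of the 11 probes were higher in females and 0 in males. By limma, either direction was called for 34% of the 8504 probes tested, with 16.7% higher in females and 17.4% higher in males. Not all of these calls stood under another normalization, as given below for each gene. Marker genes of liver cells also differed by sex. Of 7 macrophage markers tested in liver, 5 were higher in females and 0 in males, with a median difference of 0.35 and with the Kupffer cell gene Clec4f at 0.64 among them. Of 17 hepatocyte markers, 7 were higher in females, such as Hpd (0.56), and 2 in males, C8a (-1.11) and Serpina1b (-0.20), with a median of 0.07. Of 6 fibroblast and endothelial markers, 2 were higher in females (Cdh5, 0.13, and Pecam1, 0.18), and of 3 mesothelial and epithelial markers Krt18 was higher in males (-0.40). The median over all probes was -0.0032. The part of these cell types in the sex differences of the members was not tested.

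Apom was called with neqc and in the deposited values. Females ran from 12.35 over a median of 12.67 to 13.05 and males from 12.14 over 12.49 to 12.77. The groups overlapped, with 21 of 24 females above the male median. The difference was 0.21 (SE 0.05, adjusted p = 0.00259, limma), or 1.15-fold, with females higher on 4 of 4 days. It was 0.20 in the deposited log2 values (adjusted p = 0.00208, limma). By day the mean difference was 0.25, 0.40, 0.12 and 0.06 on days 1, 2, 5 and 6, with 3 females on day 2.

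Apoa5 ran from 7.80 over 8.35 to 9.11 in females and from 7.24 over 8.10 to 8.86 in males. The difference was 0.36 (SE 0.11, adjusted p = 0.00712, limma) and 0.21 in the deposited values (adjusted p = 0.00415). It depended on the scanning day. Females were higher by 0.75 on day 1, by 0.20 on day 2 and by 0.61 on day 5, and on day 6 the difference was -0.33. Without day 1 it was 0.13 (adjusted p = 0.455) and without day 5 it was 0.20 (adjusted p = 0.322).

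Apoa2 probe 1 was at the top of the array's range in liver. It was the brightest of all 46116 probes on 22 of 24 female arrays and second brightest on the other 2. In males it was second brightest on 23 of 24 arrays and the third on 1. A single probe with no gene name here was the brightest on all 24 male arrays and on 2 female arrays, and was itself higher in males (-0.89, adjusted p = 0.00019, limma). Quantile normalization gives the same value to the same rank on every array, so Apoa2 probe 1 read 15.74 on 22 female arrays and 15.45 on 23 male arrays. The difference of 0.30 (SE 0.02, adjusted p = 4.65e-15, limma) is thus the step between the first and second rank. Before normalization its median signal was 56391 in females and 50696 in males, and in the deposited values the difference was 0.0045 (adjusted p = 0.928).

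Apoa2 probe 2, lower in signal, ran from 14.57 over 15.12 to 15.45 in females and from 14.61 over 14.98 to 15.12 in males. It ranked from 2 to 11 on liver arrays, with a median rank of 3 in females and 4 in males. Its normalized values were thus also those of its rank, which depends on the probes above it. Its difference was 0.15 (SE 0.06, adjusted p = 0.0386, limma) and was not called in the deposited values (0.07, adjusted p = 0.216). On day 2 males were higher.

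Apoc3 ran from 13.93 over 14.35 to 14.52 in females and from 13.93 over 14.17 to 14.47 in males, with a difference of 0.14 (SE 0.04, adjusted p = 0.00699, limma). Apoe ran from 13.50 over 13.73 to 14.04 in females and from 13.08 over 13.52 to 13.95 in males, with a difference of 0.12 (SE 0.04, adjusted p = 0.036, limma). In each the sexes overlapped, with 21 of 24 females above the male median. Neither was called in the deposited values, where the differences were 0.06 and 0.08.

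Apoa1, Apoa4, Apoh and Apob were not called. Apoa1 differed by 0.07 (SE 0.06, adjusted p = 0.394, limma) and Apoh by 0.13 (SE 0.11, adjusted p = 0.359). The Apoa4 differences were 0.03 (SE 0.13) and 0.16 (SE 0.17) for its probes. Apob had the opposite sign, -0.14 (SE 0.08, adjusted p = 0.151). Its 24 females ran from 10.62 over 11.22 to 11.69 and its 24 males from 10.92 over 11.41 to 11.94, with males higher on 4 of 4 days.

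**Figure D4:**
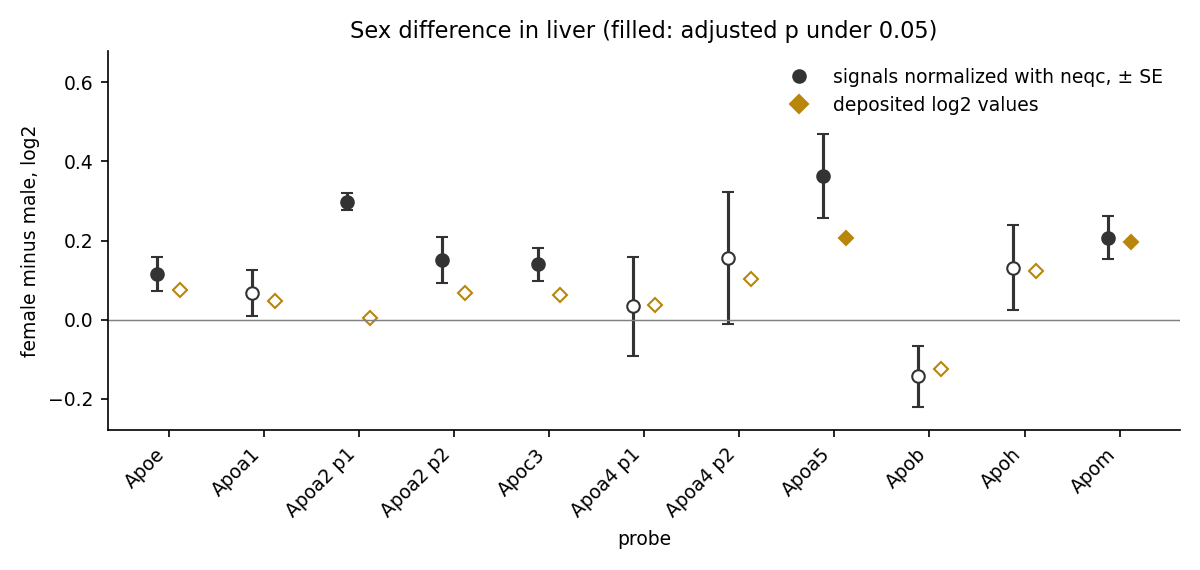
Difference between the sexes in liver (vertical axis, female minus male, log2) for the 11 apolipoprotein probes tested. Black circles with SE bars are signals normalized with neqc, gold diamonds are the deposited log2 values, and filled symbols have an adjusted p under 0.05. With neqc 6 probes are filled, and with the deposited values only Apoa5 and Apom are, while Apoa2 probe 1 drops from 0.30 to 0.0045.

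Whether a sex difference itself differed between the tissues was tested with an interaction term on the scale normalized over both tissues. By limma 4 of the 12 probes were called, against 27.7% of the 11718 tested. For Apoe the sex difference in fat minus that in liver was -0.61 (SE 0.09, adjusted p = 1.84e-08). On this scale the mean female minus male of Apoe was -0.53 in fat and 0.16 in liver. The sex difference of Apoe within liver was not called in the deposited values. For Apod the sex difference in fat minus that in liver was -1.57 (SE 0.37, adjusted p = 7.21e-04), with no liver array above background. The values for Apoa5 (-0.31, SE 0.10, adjusted p = 0.0109) and Apom (-0.19, SE 0.06, adjusted p = 0.01) came from liver, as Apoa5 was detected on 0 and Apom on 1 fat array. Without the mice whose fat arrays carried epididymis or testis markers the Apoa5 call was lost (-0.28, adjusted p = 0.0797).

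None of the 10 genes was called by haplotype class in either tissue. In fat 0 of 2 members were called by the F-test over the classes (limma), against 0.401% of the 10217 probes tested, or 41 probes. In liver 0 of 11 were called, against 0.317% of 8504, or 27 probes. At an unadjusted p under 0.05 there were 1323 probes in fat and 455 in liver, and the only members among them were both Apoa4 probes in liver. In fat, Apoe class means ran from 11.38 in class 2 to 11.58 in class 3 (adjusted p = 0.604), and Apod means from 7.00 in class 4 to 7.52 in class 2 (adjusted p = 0.863).

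Apoa4 showed the widest spread between classes of the members in liver, and both probes had the same order at the ends. By probe 1, class 1 ran from 9.75 over a median of 10.39 to 11.08 and class 3 from 9.72 over 11.12 to 11.56. The class means of probe 1 were 10.33, 10.62, 10.88 and 10.58 for classes 1 to 4 (unadjusted p = 0.0204, adjusted p = 0.83, limma). Those of probe 2 were 7.84, 8.03, 8.54 and 8.05 (unadjusted p = 0.0178, adjusted p = 0.802). Class 3 exceeded class 1 on 4 of 4 days by probe 2 and on 3 of 4 by probe 1. The ranges overlapped, and the result fails the correction over all probes. The probes correlated at r = 0.74 over 48 arrays after removal of class, sex and day. The 3 neighbours of Apoa4 on chromosome 9 had class ranges of 0.09 (Apoa1), 0.09 (Apoc3) and 0.22 (Apoa5), with adjusted p = 0.999 for each. Among the remaining liver members the adjusted p was also 0.999.

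The class differences were also tested for dependence on sex and tissue. The interaction of sex and class was called for 0 of 2 members in fat and 0 of 11 in liver, against 0 percent of all probes in both (685 and 573 probes at an unadjusted p under 0.05). Apoa5 in liver had the lowest value among the members (unadjusted p = 0.0298, adjusted p = 0.687, limma). The interaction of tissue and class was called for 0 of 12, against 0.179% of all probes (939 at an unadjusted p under 0.05).

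Most of the variance of Apoh in liver lay between scanning days. Its liver signal ran from 11.07 over a median of 12.21 to 13.74 in the 48 mice, the widest SD of the liver members (0.69). Day 1 had a mean of 13.32 ± 0.39 (SD, n = 12), day 2 11.78 ± 0.45, day 5 12.01 ± 0.24 and day 6 12.26 ± 0.32. The lowest day 1 array was below the highest arrays of days 2 and 6. Scanning day accounted for 74.7% of its variance, sex for 3.02% and class for 0.65%. The corresponding day share was 47.6% for Apoe, 30.7% for Apob and 2.01% for Apom. With day removed, Apoh still followed the number of detected probes per array (r = 0.64) and the mean log2 level of the testable hepatocyte markers (r = 0.78). The genes most like it were Cfb (complement factor B, r = 0.94), Atp5a1 (an ATP synthase subunit, r = 0.92) and Rpl21 (a ribosomal protein, r = 0.91), over 48 arrays, and 76.9% of the variance of Atp5a1 lay between days.

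**Figure D5:**
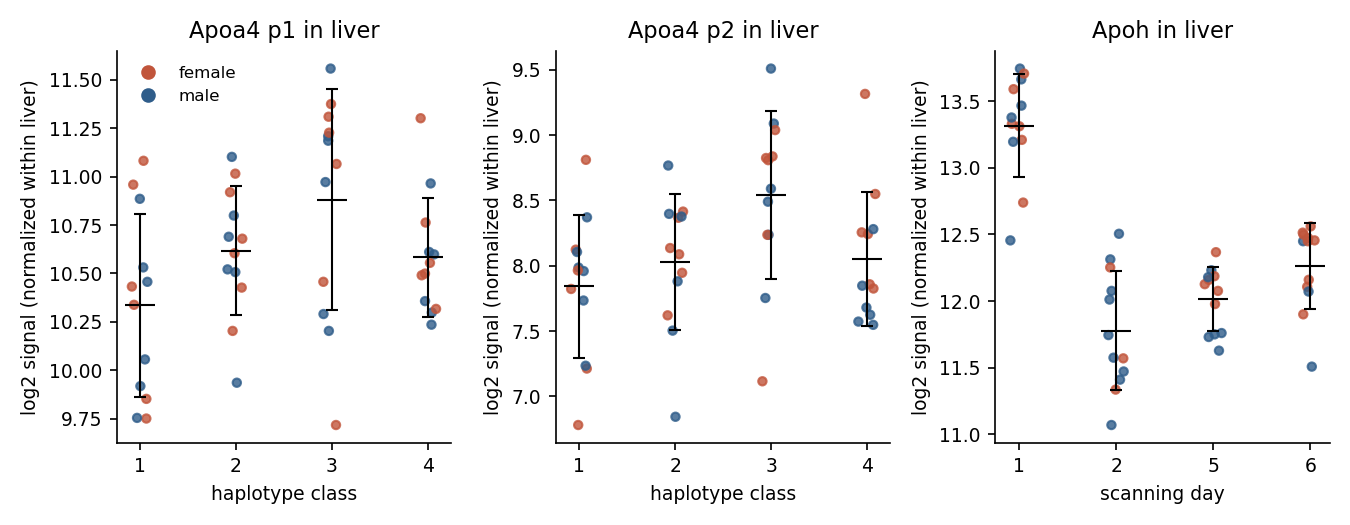
Log2 signal in liver (vertical axes, normalized within liver) of both Apoa4 probes by haplotype class and of Apoh by scanning day, 1 point per array, red for females and blue for males, with mean and SD in black (n = 12 for each class or day). Class 3 has the highest and class 1 the lowest Apoa4 mean by both probes with overlapping arrays, and Apoh is highest on day 1.

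Among the members in liver, 36 pairs of genes were correlated over 48 mice after class, sex and day were removed, with p-values from permutation and adjusted over the 36. Apoh and Apom were inversely related (r = -0.61, adjusted p = 0.00018; rho = -0.59, adjusted p = 0.00072), from -0.77 to -0.38 within days and -0.56 without the 2 mice farthest from the median. Their unadjusted permutation p of 1e-05 is the smallest the 100000 resamples can give. In the deposited values they stood at r = -0.65. Apoa1 and Apoh had r = 0.46 (adjusted p = 0.0143; rho = 0.44, adjusted p = 0.0248) and 0.12 to 0.74 within days. Apoa1 and Apoa5 had r = -0.37 (adjusted p = 0.0592) and, in the deposited values, -0.46 (adjusted p = 0.00648).

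The 8 pairs with Apoa2 were read in the deposited values. After quantile normalization Apoa2 probe 1 took only 3 values, with 45 of 48 liver arrays at the commonest value of their sex, while the deposited log2 values held 48 distinct ones. In the deposited values Apoa2 correlated with Apoc3 at r = 0.60 (permutation, adjusted p = 0.00018; rho = 0.61, adjusted p = 0.00018), from 0.35 to 0.77 within scanning days and 0.52 without the 2 mice farthest from the median. The tied values gave r = 0.15 for the same pair (permutation, adjusted p = 0.523). Apoa1 and Apoa2, the main proteins of high density lipoprotein, had r = 0.54 (permutation, adjusted p = 0.00108; rho = 0.54, adjusted p = 0.00171), from 0.24 to 0.71 within days. Apoa2 and Apoh had r = 0.37 (adjusted p = 0.0558; rho = 0.37, adjusted p = 0.0445). Leaving out the 8 pairs, the others ran from -0.61 to 0.46 with a median of 0.02 on the normalized scale. The number of detected probes per array correlated with Apoa1 at r = 0.49, with Apoh at 0.64 and with Apom at -0.48, and its part in the pairs was not tested.

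The nearest genes to the other liver members were as follows, with r over 48 arrays as a description. Apoa1 was nearest to the ribosomal protein genes Rps27 (0.78), Rpl37a (0.78) and Rpl5 (0.76). For Apoa2 none is given, as its values were tied. Apom was nearest to Fbl (0.73), Emc10 (0.73) and Lmna (0.69). Apoc3 had Sult2a8 (0.62), Ces3b (0.59) and Cyp2d10 (0.56), and for Sult2a8 the value was 0.83 in females and 0.17 in males. Apoa5 had Scp2 (0.64), Ttc19 (0.63) and Psmd7 (0.63), and Apob had Eif3f (0.62), Dhrs4 (0.59) and Eif3l (0.55). Apoa4 had Rtn3 (0.58), the ketone body enzyme gene Bdh1 (0.56) and Asxl2 (0.54), and Apoe in liver had Coq8b (0.66), Eif2ak1 (0.61) and the glucokinase regulator Gckr (0.60).

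Apoe was the only member testable in both tissues of the same mouse. Its fat and liver values, after class, sex and day were removed, correlated at r = 0.09 (permutation p = 0.546) and rho = 0.09 (p = 0.547) over 48 mice. Within females r was -0.16 and within males 0.30, and without the 2 mice farthest from the median it was -0.02. The deposited values gave r = 0.14 (permutation p = 0.346).

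The partners of these proteins were read from lists chosen with earlier results known. By haplotype class 0 genes were called in any of the 5 pathway lists, in either tissue. Of 11 other apolipoproteins and related proteins tested in liver, 4 were higher in females and 3 in males. Among them Pon1, an esterase carried on high density lipoprotein, differed by 0.46 and Apoc4 by 0.18, while Clu, also called apolipoprotein J, differed by -0.34 (limma, adjusted p = 1.86e-10, 0.00304 and 2.12e-09). The list's median difference was 0.02, against -0.0032 over all probes tested. Of 12 tested between the tissues, 11 were higher in liver and 1 in fat, among them Apof, detected on 0 fat arrays and at least 84.4-fold higher in liver, and Apoc4 (-6.82), detected on 2 fat arrays.

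Of the genes that assemble and export lipoproteins, 14 were tested in liver, with 1 higher in females and 4 in males. Tm6sf2, which loads lipid onto particles, differed by 0.28, while Surf4, a cargo receptor of the secretory pathway, differed by -0.35 and Apobec1, which edits the Apob message, by -0.27. In fat 1 of 11 was higher in females and 2 in males. Between the tissues, 11 of 15 were higher in liver and 4 in fat. Mttp, which lipidates apolipoprotein B, was detected on 0 fat arrays and at least 3.47-fold higher in liver. Sort1 was higher in fat by 4.92 by its brightest probe, detected on 14 liver arrays. Its other probes had the same direction and were detected on 0 liver arrays, with bounds of 1.31-fold and 1.00-fold.

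Of the lipases, cofactors and transfer proteins, 5 of 10 were higher in females and 2 in males in liver. Pltp (0.85), which remodels high density lipoprotein, and Lcat (0.33), the enzyme that Apoa1 activates, were higher in females, and Lpl (-1.06), the lipase that Apoa5 and Apoc3 act upon, was higher in males. In fat 3 of 10 were higher in females, among them Lpl (0.20), and Pltp alone was higher in males. Lpl was higher in fat than in liver by 6.11.

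Of the receptors and cholesterol transporters, 6 of 11 were higher in female liver and 0 in male liver, with a median difference of 0.13. Vldlr (0.63), a receptor for Apoe-bearing particles, and the sterol exporters Abcg5 (0.63) and Abcg8 (0.52) were among the 6. In fat 1 of 7 was higher in females, Vldlr (0.26), and 3 in males, namely the cholesterol exporter Abcg1 (-0.31), the fatty acid receptor Cd36 (-0.24) and the Apoe receptor Lrp1 (-0.21). Between the tissues 8 of 13 were higher in liver and 4 in fat.

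Of the regulators of hepatic apolipoprotein genes, 4 of 18 were higher in females and 4 in males in liver, with a median difference of -0.01. Ppargc1a (0.10) and Ppara (0.09) were higher in females, and Foxa1 (-0.23) and Rora (-0.24) in males. Between the tissues 16 of 19 were higher in liver and 3 in fat. Hnf4a, the gene of the factor for which the core in the Apoa4, Apob and Apoh promoters is named, differed by -5.16 (SE 0.08). In fat 2 of 9 were higher in males, Srebf2 (-0.09) and Hnf4a (-0.47). Hnf4a was detected on 13 of 48 fat arrays, so both of its differences rest on a fat signal near background.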

How the data were processed

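Illumina bead arrays measured 48 fat and 48 liver samples, grouped by the labels' tissue, haplotype class, sex, scanning day and mouse number. The first deposited table gives raw probe intensity values, without background correction or normalization, per the file headers and the values themselves. Beside each array's signals the authors deposited a fraction headed as a detection p-value. It rises with the signal and so is 1 minus that p, and it was turned back. The authors' deposited matrix holds log2 values made with lumi, per the submitters' processing notes, with version and normalization not given in the sources used here. They served as an alternative only.

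In R 4.3.3, limma 3.58.1's neqc corrected background from the detection p-values (offset 16), quantile-normalized and took log2, within each tissue for class and sex and over all 96 arrays for comparisons of the tissues. The offset compresses weak signals, so folds near background are understated, and the highest probes take the value of their rank. A probe was tested if detected (p under 0.01) on at least 12 arrays, which kept 2 member probes in fat, 11 in liver and 12 over both. Models held class, sex and scanning day (fat minus liver held class and sex, as day is nested in tissue), with lmFit and eBayes with a trend. Benjamini-Hochberg adjustment ran over all tested probes, with calls under 0.05 and two-sided tests. Means and SDs are over arrays as normalized; differences are those of the fit. The number of arrays limits the precision.

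Of the 46116 probes, 29534 had 1 gene symbol in the platform table, 11 had several and 16571 none. All members are named in every comparison. From each of the 5 pathway and 7 marker lists, up to 4 genes with the largest moderated statistic among those called could be named, markers at or near background were listed for the checks of tissue, and the 3 genes with the highest correlation were named for each member (none for Apoa2, whose liver values were tied, so its pairs were read in the deposited values). The unnamed brightest liver probe, the markers read on single fat arrays and Apoe's nearest genes in fat were chosen after values were seen. The members and lists were chosen with earlier results of these data known. The labels say that the mouse number marks the same animal, so it pairs the tissues. The median correlation of a mouse's fat and liver deviations was 0.08, over 0.1 in 20 of 48 mice. Between different mice the median was -0.0022. For 3 of 48 mice the best match between the tissues was with itself, so the values bear out the pairing only weakly. Alternatives were the deposited values, no background correction, all probes, array weights, other normalization, scanning day dropped or left out in turn, the mouse as a block and, added after seeing the data, sets of fat arrays left out. The models were tested on simulated data.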

Additional observations from a re-analysis of the deposited data

Results flagged for a closer look

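In 82 groups of 6 arrays of 1 tissue, class and sex, 4 held an array whose gap to its nearest neighbour, as a share of the group's range, exceeded Dixon's critical value, and chance gives about 1 in 20 such groups. In liver, the lowest Apoa1 value of the class 3 females was 14.52, with the next at 14.81. The lowest Apoa2 probe 1 value of the class 2 males was 15.12, where the other 5 arrays shared the value 15.45 of the second rank. The highest Apoa5 value of the class 2 females was 9.11, with the next at 8.37. The highest Apom value of the class 4 females was 13.01, with the next at 12.58.

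By the interaction test the sex difference of 4 members differed between fat and liver, 4 of 12 probes against 27.7% of the 11718 tested. The adjusted p (limma) was 1.84e-08 for Apoe, 7.21e-04 for Apod, 0.01 for Apom and 0.0109 for Apoa5. The difference of the sex differences was -0.61 for Apoe, with males higher in fat. In liver Apoe was higher in females by 0.12, which was not called in the deposited values or without scanning day 1 or day 5. The difference of the sex differences was -1.57 for Apod, which was not above background on any liver array. It was -0.31 for Apoa5 and -0.19 for Apom, which were detected on 0 and 1 of 48 fat arrays.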

How the results depend on the processing

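The sex calls in liver depended most on the processing. Of the 6 probes called, 2 were called in the deposited values (Apoa5 and Apom), 2 without scanning day 1 and 2 without day 5 (Apoa2 probe 1 and Apom each time). In fat, 1 of 2 was called by sex without scanning day 3, Apoe. With no scanning day in the model, 1 member was called for sex by class in liver, against 0 with it, namely Apoh (adjusted p = 0.0307, limma). Each class and day held 1 sex, so day and this interaction are partly tied. Over all probes the count for this interaction in liver was 0 in the main model and ran from 0 to 316 over the settings. The count of called members stayed within 1.5 times in all other settings run. No single result called in the main model or in the alternative turned its direction. Turns among results called in neither were not counted. Of 448 results for single probes under an alternative, 22 crossed the threshold, 19 of them sex differences in liver. Among these Apob became called without scanning day in the model (-0.22, adjusted p = 0.0324). With the mouse as a random replicate block the paired fits called 12 probes for fat minus liver, 4 for tissue by sex and 0 for tissue by class, and 12 as a fixed block, so the pairing changed no call. Over all probes, the class count of 41 in fat ran from 14 to 65 and that of 27 in liver from 16 to 30, while the sex count of 2314 in fat ran from 970 to 2656 and that of 2893 in liver from 1712 to 3010. The causes of these changes were not tested, and leaving out a day also makes the sample smaller. Signal over background limits the fat readings of every member but Apoe and Apod.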
